A study of Homo sapiens with 8 samples.

Results

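The BCL2 family of apoptosis regulators was examined in MeRIP-seq libraries of SK-N-BE(2), an established human neuroblastoma cell line with amplified MYCN. Members were taken by gene symbol from the deposited count table, and all 10 were found among its 56303 genes: BCL2, BCL2L1, MCL1, BAX, BAK1, BCL2L11, PMAIP1, BBC3, BID and BAD. A control shRNA (sh-NC) was set against one directed at METTL14 (shMETTL14), the RNA-binding partner of METTL3 in the complex that writes m6A on messenger RNA. Both arms were lentivirus-infected lines selected with puromycin, without another treatment, and each arm had 2 cultures with 1 input and 1 IP library each, 8 libraries in all. The labels do not say whether the shMETTL14 cultures are repeats of 1 shRNA or the 2 METTL14 shRNAs of the study. They do not call the cultures independent, so p-values rest on the spread between these samples, which may be technical. For each gene that spread was estimated partly from all genes. In MeRIP-seq, poly(A) RNA is fragmented, a small portion is set aside (input), and the remainder is precipitated by an anti-m6A antibody (IP). The input gives the RNA level of a gene, and IP over input gives its antibody enrichment relative to the average gene.

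BCL2 family proteins decide whether the outer mitochondrial membrane is permeabilized, the step that releases cytochrome c and starts the caspase cascade. Anti-apoptotic members (BCL2, BCL2L1 and MCL1) hold the pore-forming effectors BAX and BAK1 in check, and BH3-only members (BCL2L11, PMAIP1, BBC3, BID and BAD) bind and block the anti-apoptotic members or activate the effectors. Neuroblastoma cells are known to rely on BCL2 or MCL1 for survival.

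To show short stretches of the regulatory sequence of members whose input RNA differed between the arms, 30-base windows are printed from the RefSeq promoter table of GRCh38.p14. It covers 250 bases before to 50 bases after a gene's start and held 9 of the 10 members. MCL1, whose input RNA was lower, had no entry and was not searched. The windows run 5′ to 3′ on the gene's strand and the capitals mark the motif, searched on both strands. Distances are counted from the RefSeq start, which lay downstream of the start deposited in the count table by 359 bases for BCL2, 99 for BBC3 and 48 for PMAIP1 and was the same for BAD. The window of BCL2 therefore lies inside its deposited gene span. The motifs were chosen after the members' values were seen.
BCL2, CRE core, 225 bases before the start, chr18:63319977-63320006, reverse strand: cctgccggcggcCGTCAgcgctcggagcgg
PMAIP1, CRE core, 55 bases before the start, chr18:59899929-59899958, forward strand: ctagtttccctaCGTCAccagggaagttct
BAD, CRE core, 54 bases before the start, chr11:64284741-64284770, reverse strand: gacctacccgagTGACGttccgagaggtga
BBC3, E-box, 232 bases before the start, chr19:47232882-47232911, reverse strand: atggggagatttCACGTGagatatagatta
The CRE core (TGACG, or CGTCA on the other strand), part of the sequence that ATF and CREB factors bind, was in the promoters of 5 of 9 members (BCL2, BCL2L1, BAX, PMAIP1 and BAD) and in 24.6% of 35116 promoters. The E-box CACGTG, which MYC family proteins bind, was in 2 of 9 (BAX and BBC3) and in 7.26% of all promoters. The GC box (GGGCGG, or CCGCCC) was in 6 of 9 and in 45% of all promoters. The motifs can overlap one another, as an E-box and a CRE core did in BAX. A match gives letters only and says nothing of binding in these cells.

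Total counts ran from 32027379 to 47205265 per library. METTL14 itself stood at 51.5 and 50.8 CPM (counts scaled to a common library size by TMM factors) in the sh-NC inputs and at 14.3 and 15.3 in the shMETTL14 inputs, which bears out the labels. All 10 adrenergic neuroblastoma markers examined were at 1 CPM or more in every input, with a summed level from 6223 to 6452 CPM in sh-NC and a higher one, from 6584 to 6684 in shMETTL14, where 6 of the 10 were called higher (11.7% of all genes were). The leukocyte marker LYZ was at 0 counts in every input, and PTPRC and CD3E were under 1 CPM. Of the 3 epithelial markers, CDH1 was under 1 CPM, EPCAM was between 5.12 and 5.69 in every input, and KRT18 was at 1.11 and 0.693 in sh-NC against 0.272 and 0.400 in shMETTL14; 1 of the 3 was called lower. That of CD68-dominated leukocyte markers was from 17.3 to 21.0 CPM in sh-NC, against 13.5 to 15.2 in shMETTL14. The 6 mesenchymal markers, all detected, summed to between 427 and 440 CPM over both arms, with 3 of them called higher and 2 lower (12.3% of all genes were lower). Whether these shifts play a part in the results that follow was not tested.

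To see how the members stood to each other before knockdown, input levels were divided by gene length, which gives CPM per kilobase of exon. MCL1, an anti-apoptotic protein with a short half-life, had the highest level, at 47.78 and 47.81 CPM per kilobase in the sh-NC inputs. BAD, a BH3-only protein kept inactive by phosphorylation and 14-3-3 binding, followed at 12.7 and 14.4. BID, which caspase-8 cleaves into its active form, stood at 9.79 and 10.5. These 3 led the order, and MCL1 was 25.4 times as high as BBC3, the lowest member.

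BCL2L1, which encodes BCL-XL, had 8.32 and 9.32 CPM per kilobase in the sh-NC inputs, and the effector BAK1 had 7.68 and 8.11. The effector BAX had 5.85 and 6.44. PMAIP1 (NOXA), a BH3-only protein that binds MCL1, had 5.62 and 5.25, and BCL2L11 (BIM), which binds all of the anti-apoptotic members, had 4.92 and 4.38. BCL2, the founding member, was next to last with 3.91 and 3.94, above BBC3 (PUMA) with 1.97 and 1.80. None of the 9 neighbouring pairs in this order overlapped between the 2 sh-NC inputs, although BCL2L1 and BAK1, BAX and PMAIP1, and PMAIP1 and BCL2L11 lay close. Length here is that of all listed exons of a gene, 11765 bases for BCL2, so the per-length level of a gene that mostly uses a shorter transcript is too low. BAD and BCL2L1 share 23.7% and 43.0% of their exonic bases with another gene, whose part in their ranks was not tested. In shMETTL14 the order changed at 2 places: BCL2L1 stood above BID, and BBC3 above BCL2.

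After METTL14 knockdown, input RNA of 3 members was lower and that of 2 was higher at an adjusted p-value under 0.05 (edgeR's quasi-likelihood test, Benjamini-Hochberg over 22245 genes). BCL2 fell most, MCL1 and PMAIP1 fell less, and the BH3-only genes BBC3 and BAD rose. All 10 members passed the filter on low counts. Of all genes tested, 24% were called, 12.3% lower and 11.7% higher, so 5 of 10 members were called against a background of about 1 gene in 4. The median log2 fold change was -0.08 over the members and 0.00235 over all genes tested. In bulk RNA, fewer cells expressing a gene and less RNA per cell cannot be told apart.

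**Figure D1:**
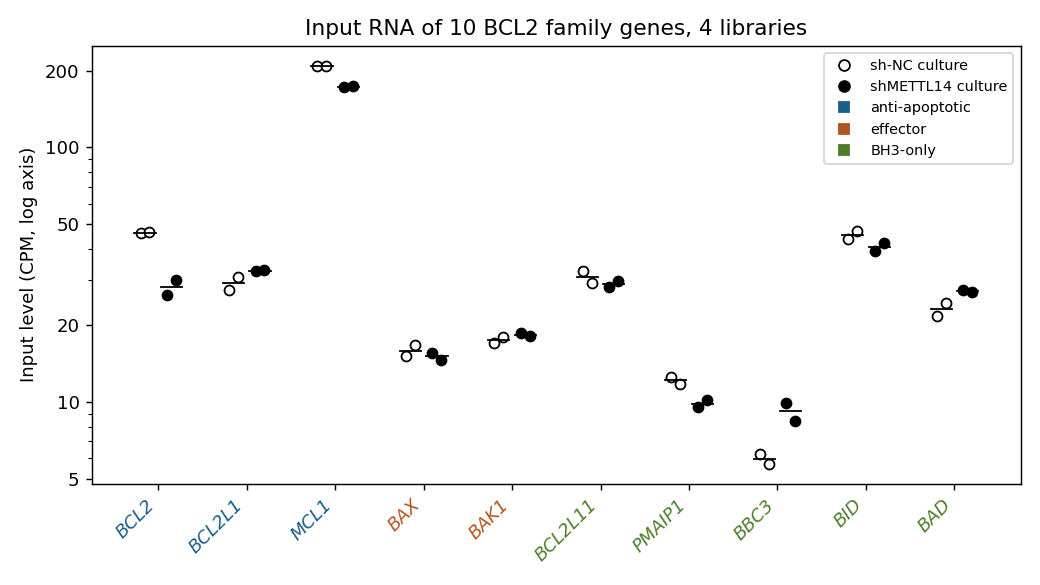
Input level of each member in CPM on a log axis, with open circles for the 2 sh-NC cultures, filled circles for the 2 shMETTL14 cultures and a line at each arm's mean; the colour of a gene's name gives its role. BCL2 lay at 46.0 and 46.3 in sh-NC and at 26.4 and 30.2 in shMETTL14, and BBC3 moved the other way.

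Among the anti-apoptotic members, BCL2 was counted 1580 and 1604 times in the inputs of sh-NC and 1069 and 1208 times in those of shMETTL14, from larger libraries. Its level was 46.0 and 46.3 CPM in sh-NC against 26.4 and 30.2 in shMETTL14, or 46.2 ± 0.243 (SD, n = 2) against 28.3 ± 2.68 (SD, n = 2). Both shMETTL14 cultures thus lay well below both sh-NC cultures, at 0.613 times their mean. On the log2 scale BCL2 fell by 0.71 (95% confidence interval -0.84 to -0.57, standard error 0.065, adjusted p = 1.25e-08 by edgeR). Leaving out each culture in turn gave values from -0.81 to -0.61, with adjusted p-values up to 0.00431. By the coordinates deposited (GRCh38), BCL2 spans 63123346 to 63320128 of chromosome 18, and its exons share no base with another gene.

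MCL1 was at 209 CPM in both sh-NC inputs and at 173 and 174 in the shMETTL14 inputs. The cultures of an arm differed by far less than the arms, and MCL1 fell by 0.27 on the log2 scale (adjusted p = 3.28e-06 by edgeR, standard error 0.0359). Leaving out each culture gave values from -0.28 to -0.27, with adjusted p-values up to 0.0187. MCL1 lies on chromosome 1 from 150574551 to 150579738.

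BCL2L1 stood at 27.6 and 30.9 CPM in sh-NC and at 32.5 and 33.0 in shMETTL14. Its shMETTL14 values were the higher ones, but it did not pass the correction (log2 fold change 0.17, 95% confidence interval 0.03 to 0.30, adjusted p = 0.0802). Without sh-NC culture 2 the log2 fold change was 0.25 and the adjusted p-value 0.015. Of its exonic bases 1424 (43.0%) also belong to ABALON on the opposite strand, which had up to 90.9% of the BCL2L1 count in a library and a log2 fold change of 0.15 (adjusted p = 0.164). The strand setting of the counting is not given in the sources used here, so reads of the 2 genes cannot be told apart.

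The effectors did not pass the test in either direction. BAX was at 15.1 and 16.7 CPM in sh-NC and at 15.5 and 14.6 in shMETTL14, so the arms overlapped, and the 95% confidence interval of its log2 fold change ran from -0.26 to 0.11. BAK1 was at 17.0 and 17.9 in sh-NC and at 18.6 and 18.2 in shMETTL14, with an interval from -0.09 to 0.24. BAK1 shares 91 exonic bases with GGNBP1 on the opposite strand, which had up to 14.9% of its count, and the pseudogene BAK1P1 had at most 25 counts in a library.

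Among the BH3-only members, BBC3 had the largest rise. It was counted 215 and 198 times in the inputs of sh-NC and 401 and 338 times in those of shMETTL14. Its level was 6.26 and 5.72 CPM in sh-NC and 9.90 and 8.45 in shMETTL14, with no overlap, and the mean was 1.53 times as high after knockdown. On the log2 scale BBC3 rose by 0.62 (95% confidence interval 0.36 to 0.88, standard error 0.125, adjusted p = 6.40e-04 by edgeR). Leaving out each culture gave rises from 0.50 to 0.72 with adjusted p-values up to 0.0499, and missed the threshold with no filter on low counts (adjusted p = 0.0573). BBC3 encodes PUMA, which binds all of the anti-apoptotic members, and lies on chromosome 19 from 47220822 to 47232766.

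PMAIP1 was at 12.6 and 11.7 CPM in sh-NC and at 9.56 and 10.2 in shMETTL14. Both shMETTL14 values were below both sh-NC values, and PMAIP1 fell by 0.30 on the log2 scale (adjusted p = 0.0314, standard error 0.101). BAD was at 21.7 and 24.5 CPM in sh-NC and at 27.5 and 27.0 in shMETTL14, again without overlap, and rose by 0.24 on the log2 scale (adjusted p = 0.0201, standard error 0.0731).

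These 2 calls rest on the test and the cultures used. With DESeq2 the adjusted p-value was 0.115 for PMAIP1 and 0.0725 for BAD, and with no filter on low counts 0.140 and 0.156. With sh-NC culture 2 left out both passed (0.0292 and 0.00312). PMAIP1 did not pass without sh-NC culture 1 (0.185), shMETTL14 culture 1 (0.218) or shMETTL14 culture 2 (0.140), and neither did BAD (0.238, 0.176 and 0.208). BAD shares 404 exonic bases (23.7%) with GPR137 on the opposite strand, which had up to 122% of the BAD count in a library and a log2 fold change of 0.16 (adjusted p = 0.0851). Its part in the BAD value was not tested.

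BID was at 43.5 and 46.8 CPM in sh-NC and at 39.0 and 42.0 in shMETTL14. Its log2 fold change of -0.16 did not pass (adjusted p = 0.0590), although it did with at least 10 counts in every library (0.0459), with the replicate block (0.0462) and without sh-NC culture 1 (0.0420). BCL2L11 was at 32.8 and 29.2 in sh-NC and at 28.4 and 29.9 in shMETTL14, with overlapping arms and a 95% confidence interval from -0.23 to 0.05. The arms did not overlap in 8 of 10 members, and in 58.5% of all genes tested. With 2 cultures against 2, an exact permutation test cannot go below p = 0.333.

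To describe the balance of roles, per-length levels were summed over the members of each role in each input. The anti-apoptotic members made up 55.3% and 54.6% of the summed level in the sh-NC inputs, against 50.3% and 50.7% in the shMETTL14 inputs. The BH3-only members made up 32.3% and 32.4% in sh-NC against 35.7% and 35.8% in shMETTL14, and the effectors 12.5% and 13.0% against 14.1% and 13.5%. Among the members summed, the anti-apoptotic share was thus lower in both shMETTL14 cultures and the other shares were higher. Relatives of the members were not part of the sums, and those called in the input comparison moved against these shares. Mean input of the anti-apoptotic BCL2L2 was 38.3 CPM in sh-NC and 49.7 in shMETTL14. That of the BH3-only BMF was 31.8 and 19.4. Shares that include them were not computed. The mean summed level of the anti-apoptotic members was 60.5 CPM per kilobase in sh-NC cells and 51.9 in shMETTL14 cells, that of the BH3-only members 35.7 and 36.7, and that of the effectors 14.0 and 14.2. The BH3-only sum was lower in shMETTL14 without BCL2L1 and BAD (22.1 against 20.8) and by CPM (117.4 against 115.9), so its direction depends on the members and the scale. These shares were not tested, and MCL1 has the largest weight in them.

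**Figure D2:**
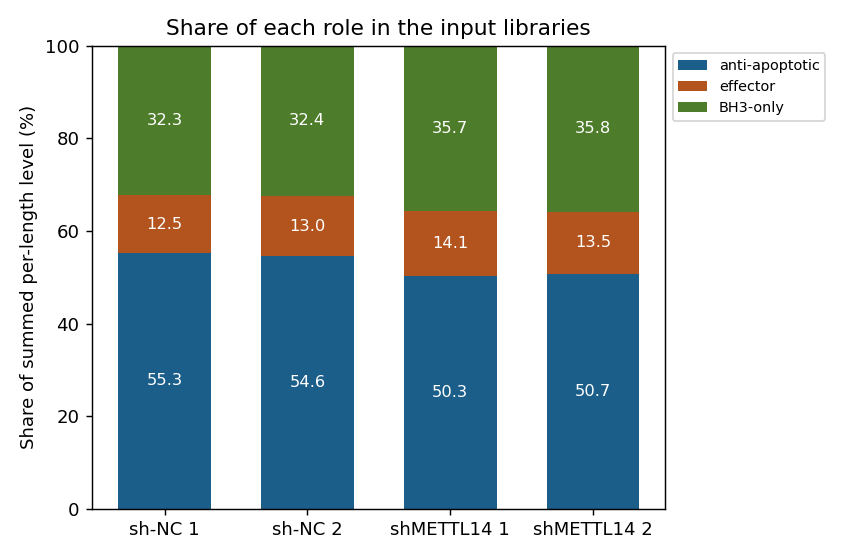
Share of each role in the summed per-length level of the 10 members, in percent, as 1 stacked bar from 0 to 100 for each of the 4 input libraries. The anti-apoptotic part was 55.3 and 54.6% in sh-NC against 50.3 and 50.7% in shMETTL14.

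The ratio of BCL2 to BAX, on the same per-length scale, was 0.668 and 0.611 with the control shRNA and 0.374 and 0.453 after knockdown. The ratio of BCL2 to BBC3 was 1.99 and 2.19 in sh-NC against 0.721 and 0.966 in shMETTL14. Neither ratio overlapped between the arms. The ratio of MCL1 to its BH3-only partner PMAIP1, both of which were called lower, was 8.49 and 9.11 in sh-NC against 9.23 and 8.75 in shMETTL14, so it overlapped. Without BCL2L1 and BAD, which share many exonic bases with another gene, the anti-apoptotic share was 58.9% in sh-NC and 54.6% in shMETTL14.

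Enrichment by the m6A antibody differed widely among the members. In sh-NC cells, reads of 4 members were higher in the IP than in the input. These were BCL2, BCL2L1 and MCL1, all 3 anti-apoptotic members, and the BH3-only PMAIP1. Reads of 4 others, the effector BAK1 and the BH3-only BBC3, BID and BAD, were lower in the IP, and BAX and BCL2L11 did not pass in either direction. Of all 22953 genes tested with edgeR, 29.1% were called higher and 29.8% lower, so the numbers of members called in each direction were near or a little above the background. IP over input of the 4 enriched members was at least 1.37 in every culture of both arms, and that of the other 6 was at most 1.01.

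BCL2 had the highest IP over input in sh-NC, at 2.03 and 1.98, which placed it at percentile 94.1 of all genes tested. Its log2 IP over input was 1.01 (standard error 0.0547, adjusted p = 5.84e-22 by edgeR). PMAIP1 followed at 1.69 and 2.14, percentile 92.5, with a log2 value of 0.92 (standard error 0.0925). BCL2L1 had ratios of 1.55 and 1.42 and MCL1 of 1.47 and 1.48, close to percentile 80, with log2 values of 0.57 and 0.56. ABALON, which shares exons with BCL2L1, had a log2 IP over input of 0.95, and its part in the BCL2L1 value was not tested.

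At the other end, BAK1 had ratios of 0.398 and 0.445 in sh-NC, percentile 7.33, with a log2 IP over input of -1.26 (standard error 0.102). The effectors thus stood far apart from each other, since BAX was at 1.01 and 0.929 with a log2 value of -0.05 (95% confidence interval -0.23 to 0.13). BBC3 had ratios of 0.665 and 0.742 and BAD of 0.838 and 0.704, with log2 values of -0.51 and -0.38. BID had ratios of 0.922 and 0.827, with a log2 value of -0.19, and BCL2L11 of 0.841 and 1.01, with a log2 value of -0.12.

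The lower calls of BBC3, BID and BAD, unlike that of BAK1, depend on where the zero is set and on single cultures. With scaling on the least enriched 25% of genes, the median of all genes in sh-NC moved from -0.0142 to 0.893 on the log2 scale, and BBC3, BID, BAD, BAX and BCL2L11 all turned to higher IP than input. BAK1 stayed lower, at -0.35. This setting raised the values in general, so it could not take away a higher call. Library size only moved the zero slightly the other way, to a median of -0.142 in sh-NC, and the 4 enriched members still passed. Without sh-NC culture 1 BBC3 did not pass (adjusted p = 0.0999), and without sh-NC culture 2 BID (0.290) and BAD (0.0603) did not. BCL2L11 passed as lower without sh-NC culture 2 (0.0294) and with scaling by library size only (0.00276). Across the members, log2 IP over input and gene length had a Spearman correlation of 0.455 (n = 10 genes of the same libraries), against 0.122 over all 22953 genes.

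In shMETTL14 cells the same 4 members were enriched, and BAK1, BID and BAD were lower, with 58% of all genes called, 28.9% higher and 29.1% lower. IP over input was 2.16 and 1.76 for BCL2, 1.86 and 1.93 for PMAIP1, 1.37 and 1.41 for BCL2L1 and 1.50 in both cultures for MCL1. BAK1 stayed lowest, at 0.432 and 0.443. BBC3, at 0.830 and 0.919, did not pass in this arm (log2 value -0.20, adjusted p = 0.167), except with scaling by library size only (0.0259), where BAX (0.0477) and BCL2L11 (0.00375) passed as well. BID was lower by 0.17 (adjusted p = 0.0201), but not with DESeq2 (0.0658), without shMETTL14 culture 1 (0.215) or without shMETTL14 culture 2 (0.0912).

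Whether IP over input changed with knockdown was tested by an interaction term (library type by arm), which removes the RNA level. None of the 10 members was called by edgeR, 0 at an adjusted and 0 at an unadjusted p-value under 0.05, and DESeq2 likewise gave 0 and 0. Of all 22953 genes, 0.00436% passed at the adjusted threshold and 6.35% at the unadjusted one (3.03% higher and 3.32% lower). Scaling sets the average gene to the same IP over input in both arms, so a fall of m6A shared by all genes cannot be seen in these values.

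**Figure D3:**
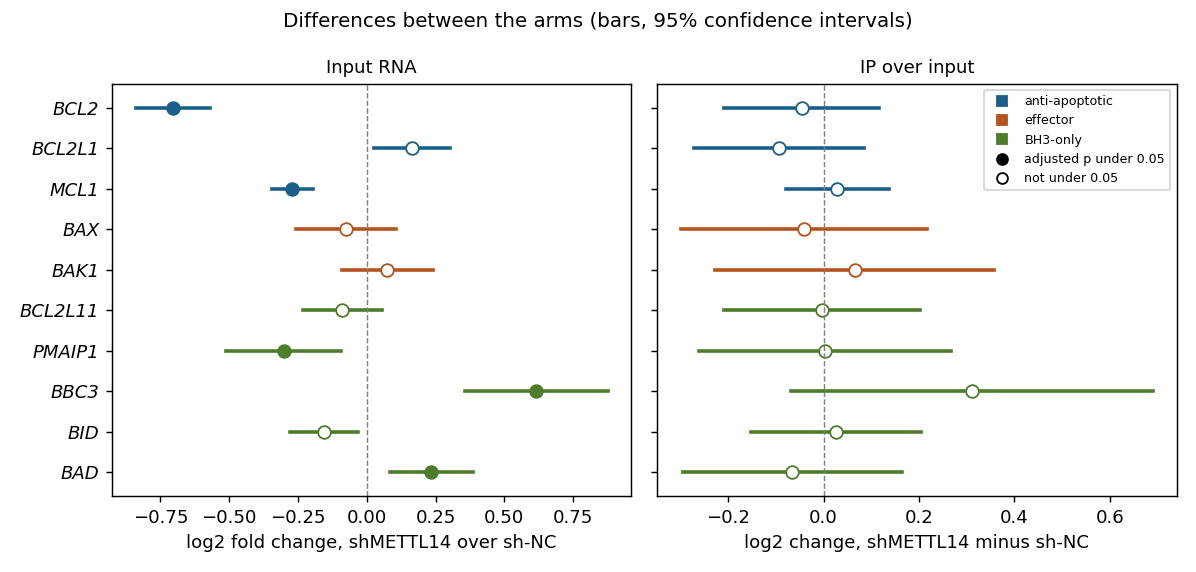
Left, log2 fold change of input RNA of each member, shMETTL14 over sh-NC; right, log2 difference of the arms in IP over input, on its own axis. Points are fitted values, filled where the adjusted p-value was under 0.05, and bars are 95% confidence intervals: 5 members are filled on the left, and every interval on the right includes 0.

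The intervals bound what could have been missed in IP over input of a whole gene, relative to the average gene. Counts are summed over all exons of a gene. A change at a single site may thus be diluted, and was not tested. For MCL1, with the most reads, the change was 0.03 with a 95% confidence interval from -0.08 to 0.14, and for BCL2 it was -0.05 with an interval from -0.21 to 0.12. BCL2 RNA therefore fell in the input without a detectable change in its whole-gene antibody enrichment. In the IP libraries BCL2 stood at 89.8 and 88.2 CPM in sh-NC and at 54.4 and 50.9 in shMETTL14, a log2 difference of -0.76 that is close to that of the input. For PMAIP1 the change was 0.00298 (interval -0.26 to 0.27), for BAD -0.07 (-0.30 to 0.16) and for BCL2L1 -0.09 (-0.27 to 0.08).

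BBC3 had the change of greatest size among the members, 0.31 (standard error 0.189, 95% confidence interval -0.07 to 0.69, unadjusted p = 0.106 and adjusted p = 0.828 from edgeR's test). Its IP over input was 0.704 ± 0.0545 (SD, n = 2) in sh-NC against 0.874 ± 0.0623 (SD, n = 2) in shMETTL14, and the arms did not overlap. The arms also did not overlap for BCL2L1 and MCL1, 3 of 10 members in all, against 34.6% of all genes tested. BBC3 has the fewest reads of the family, its IP counts being 182 and 124 with the control shRNA and 242 and 252 after knockdown. On simulated counts the interaction test recovered 16% of log2 changes of 0.25, and 67.5% where the size was 0.5, among 200 changed genes of 22953. The changed genes were drawn only above a floor of mean counts. These rates are thus averages over such genes and not the rate for BBC3.

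The closest relatives of the members were examined next. BCL2L2, the anti-apoptotic BCL-w, was at 38.4 and 38.1 CPM in the sh-NC inputs and at 49.4 and 49.9 in the shMETTL14 inputs, with a log2 fold change of 0.38 (adjusted p = 1.29e-05 from edgeR's test). BMF, a BH3-only protein, was at 32.7 and 31.0 in sh-NC and at 19.0 and 19.7 in shMETTL14 (log2 fold change -0.72, adjusted p = 3.28e-08). Both arms of each gene were far apart, and both calls held with each culture left out (adjusted p up to 0.0291 and 0.00890). The fall of BMF was close in size to that of BCL2, and BCL2L2 rose where BCL2 and MCL1 fell. Exons of BCL2L2 and of BMF share bases with another gene, whose part in these values was not tested. BOK, an effector-like member, did not pass (log2 fold change -0.31, adjusted p = 0.194).

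BCL2A1 had 0 counts in 3 of the inputs and 2 in the other, and was not tested. The BH3-only genes BIK, with 4 to 14 counts per input, and HRK, with 10 to 22, were near the limit of detection and did not pass. Of the 11 other family genes examined, 8 could be tested in the input comparison, and BCL2L2 and BMF were the 1 called higher and the 1 called lower, a share near the 24% called over all genes.

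Of 18 caspases, caspase regulators and mitochondrial death factors, 0 were higher and 3 were lower, against the 24% called over all genes. APAF1, which assembles the caspase-activating apoptosome, was at 24.5 and 23.6 CPM in sh-NC and at 18.3 and 19.0 in shMETTL14 (log2 fold change -0.36, adjusted p = 6.85e-04). AIFM1, a mitochondrial flavoprotein, and XIAP, an inhibitor of caspases, had log2 fold changes of -0.14 and -0.18 (adjusted p = 0.0452 and 0.0362). Neither of these small calls held with any culture left out. None of the 7 caspases was called.

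Of 16 partners and upstream regulators, 3 were higher and 6 were lower, where 11.7% and 12.3% of all genes were. FBXW7, which marks MCL1 protein for degradation, was at 54.5 and 54.9 CPM in sh-NC and at 71.5 and 68.5 in shMETTL14 (log2 fold change 0.36, adjusted p = 5.77e-06). HUWE1, another ubiquitin ligase of MCL1, and BAG1, a BCL2-binding cochaperone, rose by 0.11 and 0.17 on the log2 scale. FOXO3, a transcription factor that drives BCL2L11 and BBC3, was at 72.1 and 71.5 CPM in sh-NC and at 60.7 and 58.8 in shMETTL14 (log2 fold change -0.27, adjusted p = 1.60e-04). The cochaperone BAG3 fell by 0.20, the transcription factor TP73 by 0.49, VDAC2, which holds BAK1 at the mitochondrion, by 0.13, and ATF4 by 0.12.

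FBXW7 passed with each culture left out (adjusted p up to 0.0177). Without shMETTL14 culture 2, APAF1 (0.0509), FOXO3 (0.0560), BAG1 (0.0859), HUWE1 (0.164), BAG3 (0.104), TP73 (0.130), VDAC2 (0.141) and ATF4 (0.119) did not. Without shMETTL14 culture 1 these genes other than APAF1 and FOXO3 did not pass either (0.0525 to 0.141). TP73 (0.0768) and VDAC2 (0.0629) did not pass without sh-NC culture 1. TP73 (0.0804), AIFM1 (0.121) and XIAP (0.112) did not pass with DESeq2. FBXW7, APAF1 and TP73 share exonic bases with another gene, whose part was not tested. With no filter on low counts BAG3 (0.0667), ATF4 (0.0614), VDAC2 (0.0844), TP73 (0.0709), AIFM1 (0.152) and XIAP (0.123) did not pass, and AIFM1 also did not with library size only (0.0582) or among genes without exon overlap (0.0511). Over the 42 genes of these lists that were tested, 4 were higher and 10 lower, where 11.7% and 12.3% of all genes were. Their median log2 fold change was -0.04, against 0.00235 over all genes tested. For the change of IP over input, 0 of 41 were called by edgeR, and 1 was lower at an unadjusted p-value under 0.05, BCL2L15, with 2 to 34 counts per library.

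BCL2 had the largest change of input RNA among the members, and the genes most like it over the 8 libraries were sought among 14915 genes with at least 50 counts in every library. By Pearson's correlation of log2 CPM these were ST6GALNAC3 (0.997), DUSP18 (0.997) and MRPS17 (0.996). These genes were picked over the same IP and input libraries, so sharing the direction of BCL2 follows from the choice. Their log2 IP over input in sh-NC was 0.76, 0.62 and 0.73. Their input log2 fold changes were smaller in size, -0.44, -0.43 and -0.45, and that of DUSP18 did not pass (adjusted p = 0.101), nor did ST6GALNAC3 without shMETTL14 culture 2 (0.0598). The 8 libraries share cultures and arms, so these correlations are a description with no test.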

How the data were processed

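The authors deposited raw read counts per gene, without normalization, for 8 poly(A) MeRIP-seq libraries with unique molecular identifiers and 150-base paired reads. The submitters' processing notes name Trimmomatic 0.36 and GRCh38; the aligner, the counting tool and its strand setting, the annotation and the removal of duplicate identifiers are not given in the sources used here. Groups came from the sample titles, and 0 sample columns were left unmapped.

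The tests were run with edgeR 4.0.16 under R 4.3.3: filterByExpr, TMM factors, glmQLFit and glmQLFTest, Benjamini-Hochberg adjustment over all genes tested and a threshold of 0.05. A standard error is the size of the log2 value over the square root of F. The input comparison used the 4 input libraries, with input CPM from that fit. IP over input and its change used 8 libraries with 4 group means, and the ratios use the CPM of that fit. Log2 CPM for correlations had a prior count of 2. Alternatives were other filters, scaling by RLE or by library size alone, DESeq2 1.42.0, a replicate block, genes without exon overlap, factors from the least enriched genes or within library type, IP libraries alone, and each culture left out.

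IP and input of a culture come from the same RNA; over 22953 genes the correlation of their deviations was 0.004 (sh-NC) and 5.55e-05 (shMETTL14). On simulated counts, 200 genes drawn above a floor of mean counts were changed and the rest were not. There the input test recovered 99.5%, 78.5% and 39.5% of log2 changes of 1, 0.5 and 0.25. Standard errors rest on 2 cultures per arm and on a spread that edgeR's fit draws toward that of all genes. They were larger for members with fewer counts.

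The members and gene lists were chosen with earlier results of these data known. Named genes were the members, METTL14, genes overlapping a member, the closest relatives, the up to 5 largest rises and 5 largest falls of input RNA among called genes of the wider lists averaging at least 50 counts without overlap of the arms, and the 3 genes most like the member with the largest change. AIFM1, XIAP, VDAC2, ATF4, BCL2L15, the marker genes and the pseudogene BAK1P1 were named after their values were seen. Values of 1 called gene of the wider lists are not reported here. Protein sequences and m6A motifs in transcripts were not analysed here.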

Additional observations from a re-analysis of the deposited data

How the results depend on the processing

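BCL2 and MCL1 kept their fall of input RNA past the threshold in every alternative run (MCL1 is not among the genes without exon overlap), and BCL2, BCL2L1, MCL1 and PMAIP1 kept their higher IP than input in both arms. No setting moved the zero of IP over input far against those 4. For input RNA, 2 members were higher; this was 1 with DESeq2, 0 with no filter, 0 among genes without exon overlap (5 members) and from 1 to 3 with each culture left out. For IP over input, sh-NC had 4 members higher and 4 lower, and shMETTL14 had 4 and 3. Among genes without exon overlap these were 2 and 1 in either arm, as fewer members were tested. With the least enriched genes as base they were 9 and 1 in either arm. With library size only 6 were lower in shMETTL14, where the median of all genes was -0.128. With that base the log2 IP over input turned to 0.86 for BAX, 0.79 for BCL2L11, 0.40 for BBC3, 0.71 for BID and 0.53 for BAD in sh-NC, and to 0.76, 0.73, 0.65, 0.68 and 0.41 in shMETTL14, since this setting moves the median of all genes to 0.893 and 0.839. With a culture left out it ran from -0.24 to 0.034 for BCL2L11 and from -0.093 to 0.012 for BAX in sh-NC. The change of IP over input had 0 members called. In the IP libraries alone, where the RNA level is not removed, 1 was higher and 3 lower. The share of all genes called in that setting is not given here, so this count cannot be set against a background. There BCL2L1 (0.063), MCL1 (-0.25), PMAIP1 (-0.31), BID (-0.14), BAD (0.16) and METTL14 (-1.70) changed sign. Changes near 0 also changed sign: PMAIP1 with DESeq2 (-0.0040), no filter (-0.0079), at least 10 counts (-0.0016), the least enriched genes as base (-0.057) and factors within library type (-0.0017), BCL2L11 with library size only (0.0042), and MCL1 (-0.031) and BID (-0.034) with the least enriched genes as base. With a culture left out the change ran from -0.19 to 0.10 for BCL2, -0.042 to 0.13 for BAK1, -0.16 to 0.13 for BCL2L11, -0.19 to 0.17 for PMAIP1, -0.051 to 0.088 for BID, -0.19 to 0.043 for BAD and -0.0026 to 0.19 for METTL14. The input log2 fold change of BIK ran from -0.78 to 1.01 and that of HRK from -0.37 to 0.61. Where the test, the scaling or the filter moved a value, the cause was not tested. Leaving out a culture leaves 1 in an arm, which is assumed to vary like the other arm.

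The replicate block gave 2 members higher and 4 lower for input RNA, the fourth being BID (adjusted p = 0.0462), and among the members changed no other call; it also left AIFM1 at 0.0505. Inputs with the same number in both arms have no other link (correlation of deviations -0.012 across genes), while IP and input of a culture are paired by the protocol. The share of anti-apoptotic members was 65.4% in sh-NC and 61.1% in shMETTL14 by CPM and 69.9% and 66.8% without BAD and BID. Leaving out BCL2L1 and BAD was an alternative chosen after seeing the data. At 2 cultures per arm, most changes as small as 0.25 on the log2 scale are missed.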
